A study of Danio rerio with 9 samples.

Results

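The lysosomal genes of the zebrafish (Danio rerio) heart valve were followed after ablation of valve cells. They are the protein-coding genes whose symbols name a cathepsin, a subunit or accessory protein of the vacuolar proton pump, a lysosomal membrane, ion channel or sterol transport protein, or 1 of the lumenal hydrolases lgmn, gba, hexa, hexb, gns, glb1, man2b and tpp1 and the cofactor precursor psap. Of 21692 genes in the table, 60 matched these names, and the 55 that reached 10 in 3 or more libraries were tested. RNA came from the atrioventricular region of heart cryosections, cut out by laser, in 3 groups of 3 libraries: uninjured, 48 h after ablation and 21 d after ablation. Each library is described as 2 hearts. Valve cells were ablated with metronidazole at 2.5 mM for 6 h, a prodrug that is toxic in cells carrying a bacterial nitroreductase. The labels give no strain, age or transgene, name no promoter that would drive the nitroreductase, and do not say whether uninjured fish received the drug. Whether libraries of a group are separate pools of fish is not stated, so the p-values speak to variation among these 9 libraries, part of which could be technical. Values of a group are given in the order of libraries 1, 2 and 3.

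Lysosomes are acidic organelles that break down material taken up by the cell and worn-out parts of the cell itself. A proton pump, built from a membrane part (V0) and a part on the cytosolic side that splits ATP (V1), acidifies the lumen, where cathepsins digest protein and other hydrolases digest sugars and lipids. Membrane proteins shield the lysosome and carry sterols and ions across its border. Macrophages, which clear dead cells and debris, are rich in lysosomes, while nearly every cell holds some.

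Values are normalised read counts as deposited, with totals per library between 15383031 and 21616553, and they are not corrected for gene length, so levels are compared within a gene only. Totals at 48 h were 15383031 to 17979624, below those of all other libraries, at 18877857 to 21616553. The choice of scaling thus moves the 48 h group as a whole against the others. Genes of the valve matrix list summed to 68261 to 83574 at 48 h, against 175096 to 220666 in uninjured tissue. Macrophage markers, a list in which some genes are also expressed by other cells, summed to 24395 to 28853 at 48 h, against 8336 to 9249 in uninjured tissue. None of the 32 in the table was at 0 in all uninjured libraries. Heart-muscle markers summed to 359357 to 451469 at 48 h, against 682826 to 770489 in uninjured tissue. Of single markers, mpeg1.1, lcp1 and csf1ra of the macrophage list rose at 48 h by 2.65, 2.61 and 1.90 on the log2 scale (limma adjusted p = 2.02e-05, 3.07e-07 and 0.00335). In that list 23 of 32 genes lay wholly above the uninjured libraries and 2 wholly below, csf1rb and timd4. The receptor copy csf1rb had 0, 0 and 3 at 48 h, against 30, 54 and 16 in uninjured tissue. These 2 changes, of -4.27 and -0.67, did not pass (limma adjusted p = 0.0657 and 0.279). The valve matrix gene dcn fell by 1.85 and the heart-muscle gene myl7 fell by 0.64 (adjusted p = 3.74e-09 and 0.0244). Of the valve matrix list 10 of 13 tested genes fell and 0 rose, and of the heart-muscle list 9 of 15 fell and 0 rose. Of 15 endothelial markers 3 rose at 48 h, fli1a, fli1b and tie1 (adjusted p = 0.00635, 0.0091 and 0.0184), and 2 fell, vwf and klf2a (adjusted p = 0.000474 and 0.00631). The endothelial gene kdrl had between 2058 and 3626 in every library and did not pass (adjusted p = 0.5). Neutrophil markers summed to 3723 to 4751 at 48 h, against 1975 to 2374 in uninjured tissue, with 3 of 11 higher and 0 lower. The gene mpx was listed at 0 in 2 of the 3 uninjured libraries. The neutrophil sum includes mmp9, also in the osteoclast list, with means of 106 in uninjured tissue and 853 at 48 h. In the same list lyz, ncf1 and cpa5 did not pass (adjusted p = 0.851, 0.875 and 0.761). Osteoclast markers other than ctsk summed to 3884 to 4401 at 48 h, against 1620 to 2246. The largest part of that sum was nfatc1, also in the endothelial list, with means of 1278 in uninjured tissue and 1977 at 48 h (adjusted p = 0.0896). Of the others, acp5a and acp5b did not pass (adjusted p = 0.45 and 0.542), and mmp9 and tnfrsf11a did. Endothelial markers summed to 38426 to 61122, against 38301 to 46886, and red cell markers to 293096 to 760455, against 677770 to 1618619. That last sum is mostly globin, including hbba1. At 48 h and at 21 d it overlapped the uninjured libraries, but all 48 h libraries lay below all 21 d ones, at 1076228 to 1543987. Of the 9 red cell rows tested 0 were called between 21 d and 48 h. At 48 h against uninjured tissue 0 were called lower, and 1 was called higher, the transcription factor gata1a, at 3.83-fold (adjusted p = 0.00228). In such captured tissue, fewer cells of a type and less RNA per cell cannot be told apart.

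Valves at 48 h after ablation had higher levels of cathepsins and of a few other lumenal enzymes than uninjured valves. Among the 55 genes, none of the 6 of the membrane part of the proton pump passed the test. None of the 7 of the lysosomal membrane and sterol transport passed, though 2 of them lay wholly above the uninjured libraries. These classes are small, and a difference between classes was not tested. Of genes of these kinds outside the 55, tcirg1b of the pump and cd63 of the membrane rose and are described with the wider list. Others in that list did not pass. Among them were tcirg1a of the pump, at 0.79 on the log2 scale, and clcn7 and laptm4b of the membrane, at -0.65 and -0.56 (limma adjusted p = 0.545, 0.183 and 0.083). In the whole list of 88 genes 13 rose and 0 fell. Of the 55 genes, 11 rose and 1 fell, or 20% and 1.82% (limma, Benjamini-Hochberg adjusted p under 0.05 over all 17891 genes tested). Over all genes tested, 4.44% rose and 6.33% fell, 10.8% together. All 48 h libraries lay above all uninjured ones in 19 of the 55 genes and below them in 2, against 13.6% of all genes tested in each direction. The median log2 fold change of the 55 genes was 0.43, against 0.01 over all genes tested. By role, 8 of 14 tested cathepsins rose, 2 of 12 other lumenal hydrolases and cofactors, 0 of 6 genes of pump part V0, 1 of 12 of pump part V1, 0 of 4 pump accessory genes and 0 of 7 genes of the membrane and of sterol transport. The gene that fell was the accessory gene atp6ap1a. Of the 32 macrophage markers tested, 23 rose and 0 fell in the same comparison. Their part in the lysosomal result was not tested.

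The count of lysosomal genes that passed at 48 h was 6 without uninjured library 3 and 4 without the mean-variance trend in the model, where ctss2.1, ctsz, ctsc and atp6ap1a passed. Over all genes, 1506 and 684 passed under the same settings, against 1927 in the fit of all 9 libraries with the trend. Fewer genes thus passed in the whole table too, and an excess of lysosomal genes under these settings was not tested. With every library scaled to the same total, the median of all genes moved to 0.28 and that of the lysosomal genes to 0.71, with 18 genes higher and 0 lower. All genes then split into 1346 higher and 653 lower, against 794 and 1133 in the deposited scaling.

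**Figure D1:**
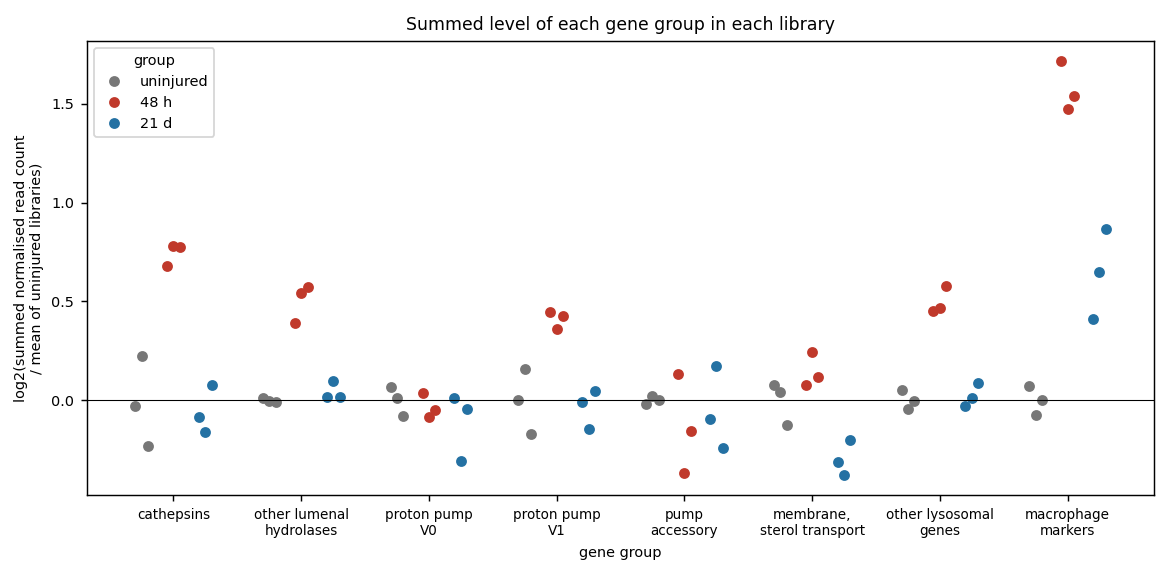
Summed normalised read count of each gene group in each library, as log2 of its ratio to the mean of the 3 uninjured libraries (y axis), for uninjured, 48 h and 21 d valves; each point is 1 library. Cathepsins summed to between 32684 and 35102 at 48 h, above all other libraries. Pump part V1, at 6414 to 6823 at 48 h, also lay above all other libraries. Pump part V0 summed to between 6021 and 6550 at 48 h and overlapped the uninjured libraries, at 6049 to 6694.

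Cathepsins, most of them cysteine proteases, were 8 of the 11 genes that rose. Cathepsin S, a protease that cuts the invariant chain in antigen-presenting cells of mammals, has the copies ctss2.1, ctss2.2 and ctss1 in the zebrafish table. The last, near the limit of detection, is taken up below. The gene ctss2.1 (ENSDARG00000074656) had values of 346, 307 and 296 in uninjured tissue, 1648, 1078 and 1121 at 48 h and 303, 345 and 349 at 21 d. All 48 h libraries lay above all others. Its level was 3.98-fold higher at 48 h than in uninjured tissue (limma adjusted p = 3.72e-05, log2 fold change 1.99 with SE 0.29). The gene ctss2.2 (ENSDARG00000013771) had 55, 114 and 55 in uninjured tissue, 325, 163 and 283 at 48 h and 337, 141 and 317 at 21 d. Here 48 h and 21 d libraries overlapped and both lay above the uninjured ones. The 48 h change of ctss2.2 was 1.80 (SE 0.51, limma adjusted p = 0.0222). It was lost without 48 h library 1 (adjusted p = 0.0894) or 3 (0.0853) and without uninjured library 1 (0.0683) or 3 (0.0737). The genes ctss2.1 and ctss2.2 are neighbours in a RefSeq annotation of another genome build, and reads of similar copies may be split between them by the counting.

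The carboxypeptidase cathepsin Z, ctsz (ENSDARG00000043081), had 263, 573 and 328 in uninjured tissue, 1255, 1764 and 1343 at 48 h and 490, 357 and 622 at 21 d. It was 3.91-fold higher at 48 h than in uninjured tissue (log2 fold change 1.97, SE 0.31, adjusted p = 0.000107). Cathepsin C, ctsc (ENSDARG00000101334), is a dipeptidyl peptidase that activates the serine proteases of immune-cell granules in mammals. Its values were 1121, 1495 and 1128 in uninjured tissue, 3686, 2833 and 3583 at 48 h and 1270, 1059 and 1931 at 21 d. Every 48 h library was above every other library, with a log2 fold change of 1.43 over uninjured tissue (SE 0.23, adjusted p = 0.000146). Cathepsin B, ctsba (ENSDARG00000055120), had 3158, 2782 and 1797 in uninjured tissue, 5795, 6098 and 5974 at 48 h and 1314, 2117 and 2948 at 21 d. The 48 h libraries were close together and the other groups overlapped, with a log2 fold change of 1.25 over uninjured tissue (SE 0.25, adjusted p = 0.00243). The calls of ctss2.1, ctsz, ctsc and ctsba at 48 h each held when any single library was left out.

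Cathepsin K, ctsk (ENSDARG00000040251), degrades collagen and is best known from bone-resorbing osteoclasts. Its values were 1288, 1067 and 951 in uninjured tissue, 1940, 2602 and 1948 at 48 h and 1085, 746 and 1257 at 21 d. The level was 1.96-fold higher at 48 h than in uninjured tissue (log2 fold change 0.97, SE 0.24, adjusted p = 0.00834). Without 48 h library 2 the adjusted p was 0.0549. Of the 6 tested genes in the list of osteoclast markers, which includes ctsk, 3 rose at 48 h. The aspartic protease cathepsin D, ctsd (ENSDARG00000057698), had 1842, 1873 and 1648 in uninjured tissue, 2236, 3690 and 3295 at 48 h and 2208, 1730 and 2352 at 21 d. Values at 48 h were above the uninjured ones but reached into the 21 d range. The aminopeptidase cathepsin H, ctsh (ENSDARG00000041108), had 696, 616 and 555 in uninjured tissue, 950, 1443 and 1079 at 48 h and 727, 835 and 1007 at 21 d. All 21 d libraries of ctsh were above all uninjured ones, and they overlapped those at 48 h. At 48 h the log2 fold change over uninjured tissue was 0.75 for ctsd (SE 0.21, adjusted p = 0.0235) and 0.88 for ctsh (SE 0.25, adjusted p = 0.025).

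These calls depended on single libraries. That of ctsd was lost without 48 h library 2 (adjusted p = 0.125) or 3 (0.0846) and without uninjured library 1 (0.0513), 2 (0.0524) or 3 (0.0842). That of ctsh was lost without 48 h library 2 (adjusted p = 0.13) or 3 (0.051) and without uninjured library 2 (0.0644) or 3 (0.0877).

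The remaining 6 tested cathepsins did not pass at 48 h. Cathepsin L, ctsla (ENSDARG00000007836) read 8261, 11909 and 7511 in uninjured tissue, 12127, 13092 and 12650 at 48 h and 8288, 7611 and 7911 at 21 d. Its 48 h libraries lay above all others, with uninjured library 2 closest to them. The log2 fold change over uninjured tissue was 0.48 (SE 0.17, adjusted p = 0.0712). It passed without uninjured library 2 (adjusted p = 0.017), with equal totals (0.00291) and after quantile normalization (0.00213). The serine carboxypeptidase ctsa, which protects other lysosomal enzymes from degradation, had a log2 fold change of 0.43 (95% confidence interval -0.09 to 0.95). For ctsf the value was -0.44 (95% confidence interval -0.94 to 0.06) and for ctso -0.33 (95% confidence interval -1.40 to 0.74). The genes ctsll and ctss1 were near the limit of detection, with values between 0 and 82 and their groups overlapping. Of the genes just inside the filter, ctsll reached 10 in 3 libraries and ctss1 in 4. Just outside it, ctsl.1, atp6v0a1b, atp6v0a2a and mcoln3a reached 10 in 2 libraries and ctsbb in 1, with no value above 108.

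**Figure D2:**
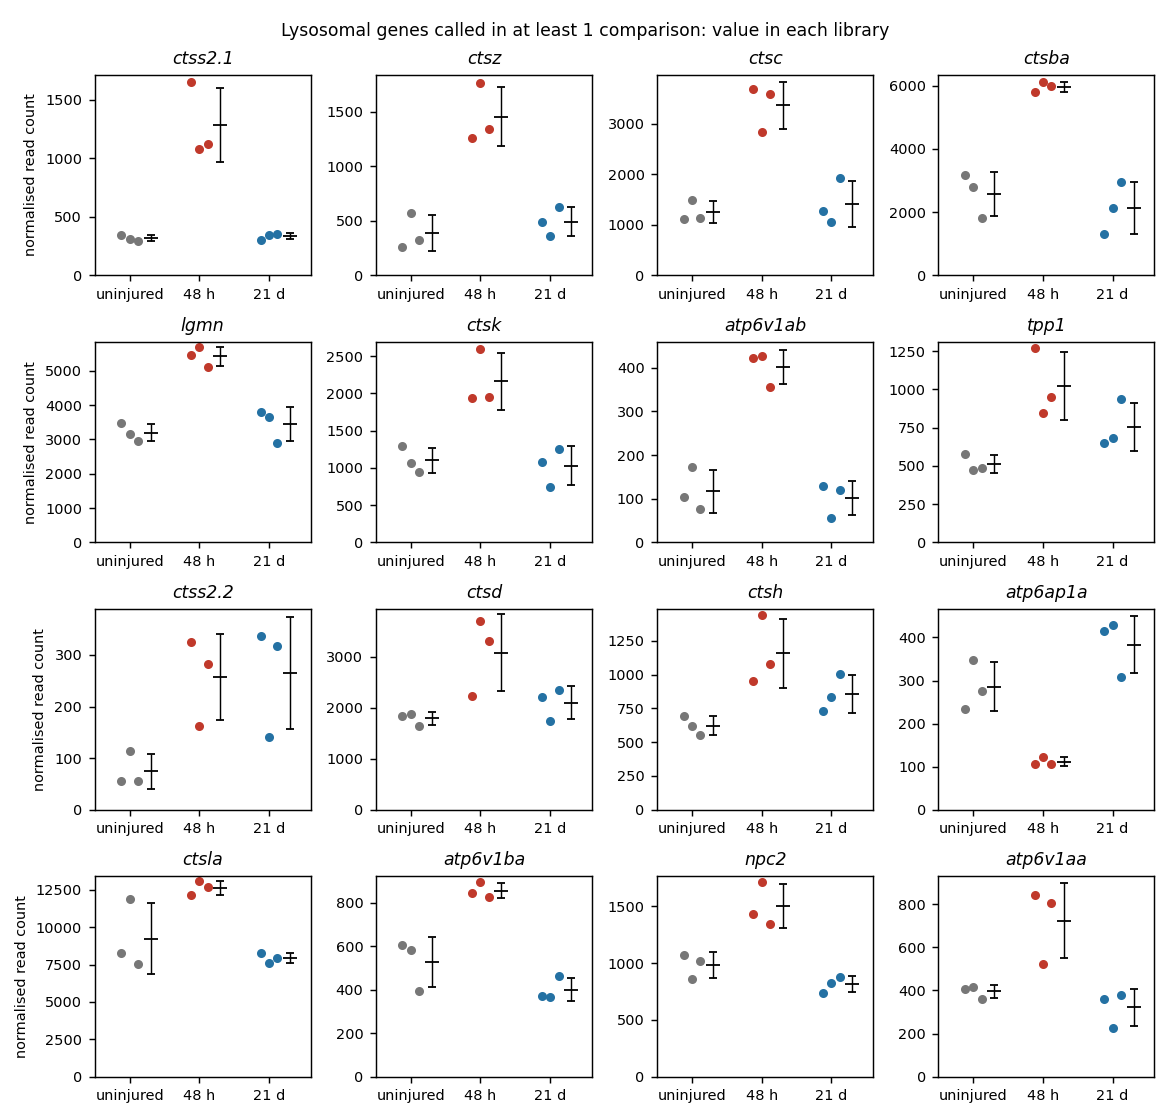
Normalised read count (y axis, from 0) of the 16 lysosomal genes called in at least 1 of the 3 comparisons, in uninjured, 48 h and 21 d valves; coloured points are single libraries and black bars the mean with its SD over 3 libraries. In most panels the 48 h libraries are highest, ctss2.2 has like values at 48 h and 21 d, and atp6ap1a has its lowest values, 105 to 123, at 48 h.

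Among the other lumenal enzymes, legumain and tripeptidyl peptidase rose at 48 h. Legumain, lgmn (ENSDARG00000039150), cuts after asparagine and matures several cathepsins. Its values were 3481, 3160 and 2966 in uninjured tissue, 5468, 5678 and 5106 at 48 h and 3806, 3651 and 2893 at 21 d. The 48 h libraries stood above the rest, 1.69-fold over uninjured tissue (log2 fold change 0.76, SE 0.18, adjusted p = 0.00577), and the call held with any single library left out. The peptidase tpp1 (ENSDARG00000042793), whose human counterpart is mutated in a childhood neuronal storage disease, had 577, 476 and 484 in uninjured tissue, 1271, 846 and 953 at 48 h and 650, 683 and 936 at 21 d. Both later groups were above the uninjured libraries without overlap, and they overlapped each other. Its change at 48 h was 0.98 (SE 0.26, adjusted p = 0.0165). That call was lost without 48 h library 1 (adjusted p = 0.0806) or uninjured library 2 (0.0575) or 3 (0.0538).

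Prosaposin, psap (ENSDARG00000013968), is the precursor of the saposins, small proteins that present lipids to hydrolases. It read 5735, 5755 and 5311 in uninjured tissue, 6519, 8580 and 8095 at 48 h and 5588, 5693 and 6164 at 21 d. The 48 h values were the highest, but the change of 0.46 did not pass (SE 0.16, adjusted p = 0.0789). It passed without 48 h library 1 (adjusted p = 0.0295), with equal totals (0.00477) and after quantile normalization (0.00122). The enzymes that digest glycolipids and sugar chains did not pass at 48 h, and their log2 fold changes ran from -0.12 for the sulfatase gnsa to 1.34 for glb1l, a relative of beta-galactosidase (adjusted p = 0.0945). In glb1l, 48 h library 2 stood at 175, inside the uninjured range of 131 to 281, while the other 48 h libraries had 634 and 850. The hexosaminidase chains hexa and hexb had 0.01 (95% confidence interval -0.88 to 0.91) and 0.57 (-0.08 to 1.23). Glucocerebrosidase, gba, had 0.50 (95% confidence interval -0.22 to 1.22).

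Of the 18 tested genes of pump parts V0 and V1, 1 rose at 48 h, or 5.56%, and 0 fell. The gene that rose was the V1 gene atp6v1ab. Over all genes tested 4.44% rose and 6.33% fell, so this count is near that share and is no result about the pump. In V1, 5 of 12 genes lay wholly above the uninjured libraries and 0 below, against 13.6% of all genes tested in each direction. The median log2 fold change of V1 was 0.38, and its sum was 6414 to 6823 at 48 h, against 4439 to 5570 in uninjured tissue. The catalytic subunit A of part V1, which binds and splits ATP, is encoded by atp6v1aa and atp6v1ab. The gene atp6v1ab (ENSDARG00000076318) had 105, 172 and 76 in uninjured tissue, 422, 426 and 357 at 48 h and 129, 56 and 119 at 21 d. It was 3.58-fold higher at 48 h than in uninjured tissue (log2 fold change 1.84, SE 0.49, adjusted p = 0.0152). That call was lost without 48 h library 2 (adjusted p = 0.0532) or uninjured library 3 (0.0699). The gene atp6v1aa (ENSDARG00000034534) had 409, 418 and 361 in uninjured tissue, 842, 525 and 805 at 48 h and 361, 224 and 381 at 21 d. The nucleotide-binding subunit B gene atp6v1ba (ENSDARG00000013443) had 606, 581 and 393 in uninjured tissue, 844, 895 and 828 at 48 h and 373, 365 and 462 at 21 d. In both, the 48 h libraries lay above all others, but the changes over uninjured tissue of 0.84 and 0.72 did not pass (adjusted p = 0.0974 and 0.106). With equal totals they passed (adjusted p = 0.029 and 0.0216).

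Other V1 subunits gave log2 fold changes between -1.54 and 0.76 at 48 h, none of which passed. The stalk subunit genes atp6v1c1a and atp6v1c1b marked both ends. The gene atp6v1c1a had 375, 334 and 444 at 48 h, against 259, 213 and 208 in uninjured tissue, with no overlap (adjusted p = 0.202). The gene atp6v1c1b had 26, 74 and 114 at 48 h, against 337, 169 and 99 in uninjured tissue, and these groups overlapped (adjusted p = 0.14). The rotor subunit gene atp6v1d (ENSDARG00000011175) read 1146, 1481 and 1117 in uninjured tissue, 1536, 1249 and 1511 at 48 h and 1198, 1167 and 1164 at 21 d, a change of 0.20 at 48 h (95% confidence interval -0.25 to 0.65).

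In the membrane part V0, none of the 6 genes among the 55 passed at 48 h and their median log2 fold change was -0.23. Subunit a lines the path of the protons. Its gene atp6v0a1a (ENSDARG00000020847) had 1394, 1178 and 1039 in uninjured tissue, 695, 938 and 501 at 48 h and 1186, 766 and 1020 at 21 d. All 48 h libraries were below all uninjured ones, and they overlapped those at 21 d. The change of -0.79 did not pass (SE 0.27, adjusted p = 0.0567). It passed with array weights (adjusted p = 0.0279), with a pseudocount of 5 (0.0485) and without 48 h library 2 (0.0235). The proteolipid gene atp6v0ca (ENSDARG00000057853), which encodes the rotating membrane ring, had 1930, 2295 and 2223 in uninjured tissue, 3170, 2249 and 3389 at 48 h and 1976, 2283 and 2540 at 21 d. In this gene 48 h library 2 stayed inside the uninjured range, and the change was 0.43 (95% confidence interval 0.01 to 0.85, adjusted p = 0.203). With equal totals it passed at adjusted p = 0.0377 and after quantile normalization at 0.0314.

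The accessory gene atp6ap1a (ENSDARG00000041417) encodes a protein that helps assemble the pump and steer it through the secretory pathway. It had 234, 347 and 275 in uninjured tissue, 107, 123 and 105 at 48 h and 414, 428 and 307 at 21 d. Its 48 h libraries were the lowest of all, and the level fell by 1.33 on the log2 scale (SE 0.39, adjusted p = 0.0275). That call was lost with equal totals (adjusted p = 0.0834), with 2 groups in the fit (0.0634), without 48 h library 1 (0.0508) or 3 (0.067) and without uninjured library 2 (0.112) or 3 (0.0677). The related atp6ap1b had 771, 407 and 622 at 48 h, against 610, 404 and 503 in uninjured tissue, with a change of 0.22 (95% confidence interval -0.46 to 0.90). The gene atp6ap2 (ENSDARG00000008735), also known as the prorenin receptor, had 521, 616 and 585 in uninjured tissue, 632, 539 and 462 at 48 h and 450, 563 and 520 at 21 d. Its groups overlapped, with a change of -0.08 at 48 h (95% confidence interval -0.66 to 0.49).

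None of the 7 membrane and sterol transport genes among the 55 passed at 48 h. The glycoprotein lamp2 (ENSDARG00000014914), which coats the lysosomal border and serves in fusion with autophagosomes, had 4996, 4618 and 3876 in uninjured tissue, 4094, 4957 and 5052 at 48 h and 3746, 3423 and 4031 at 21 d. Its change of 0.07 had a 95% confidence interval of -0.30 to 0.43, and that of lamp1 was -0.33 (-0.86 to 0.20). The cholesterol exporter npc1 had a change of 0.09 (95% confidence interval -0.34 to 0.52). Its soluble partner npc2 (ENSDARG00000090912) had 1073, 858 and 1021 in uninjured tissue, 1435, 1717 and 1345 at 48 h and 738, 825 and 878 at 21 d. The 48 h libraries of npc2 lay above all others, and the change of 0.61 missed the threshold (adjusted p = 0.0933). With equal totals the adjusted p was 0.015, and after quantile normalization 0.0358. The calcium channel gene mcoln1a had 618, 358 and 396 at 48 h, against 216, 243 and 194 in uninjured tissue. Its groups did not overlap, with a change of 1.03 (95% confidence interval 0.30 to 1.76, adjusted p = 0.0645).

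**Figure D3:**
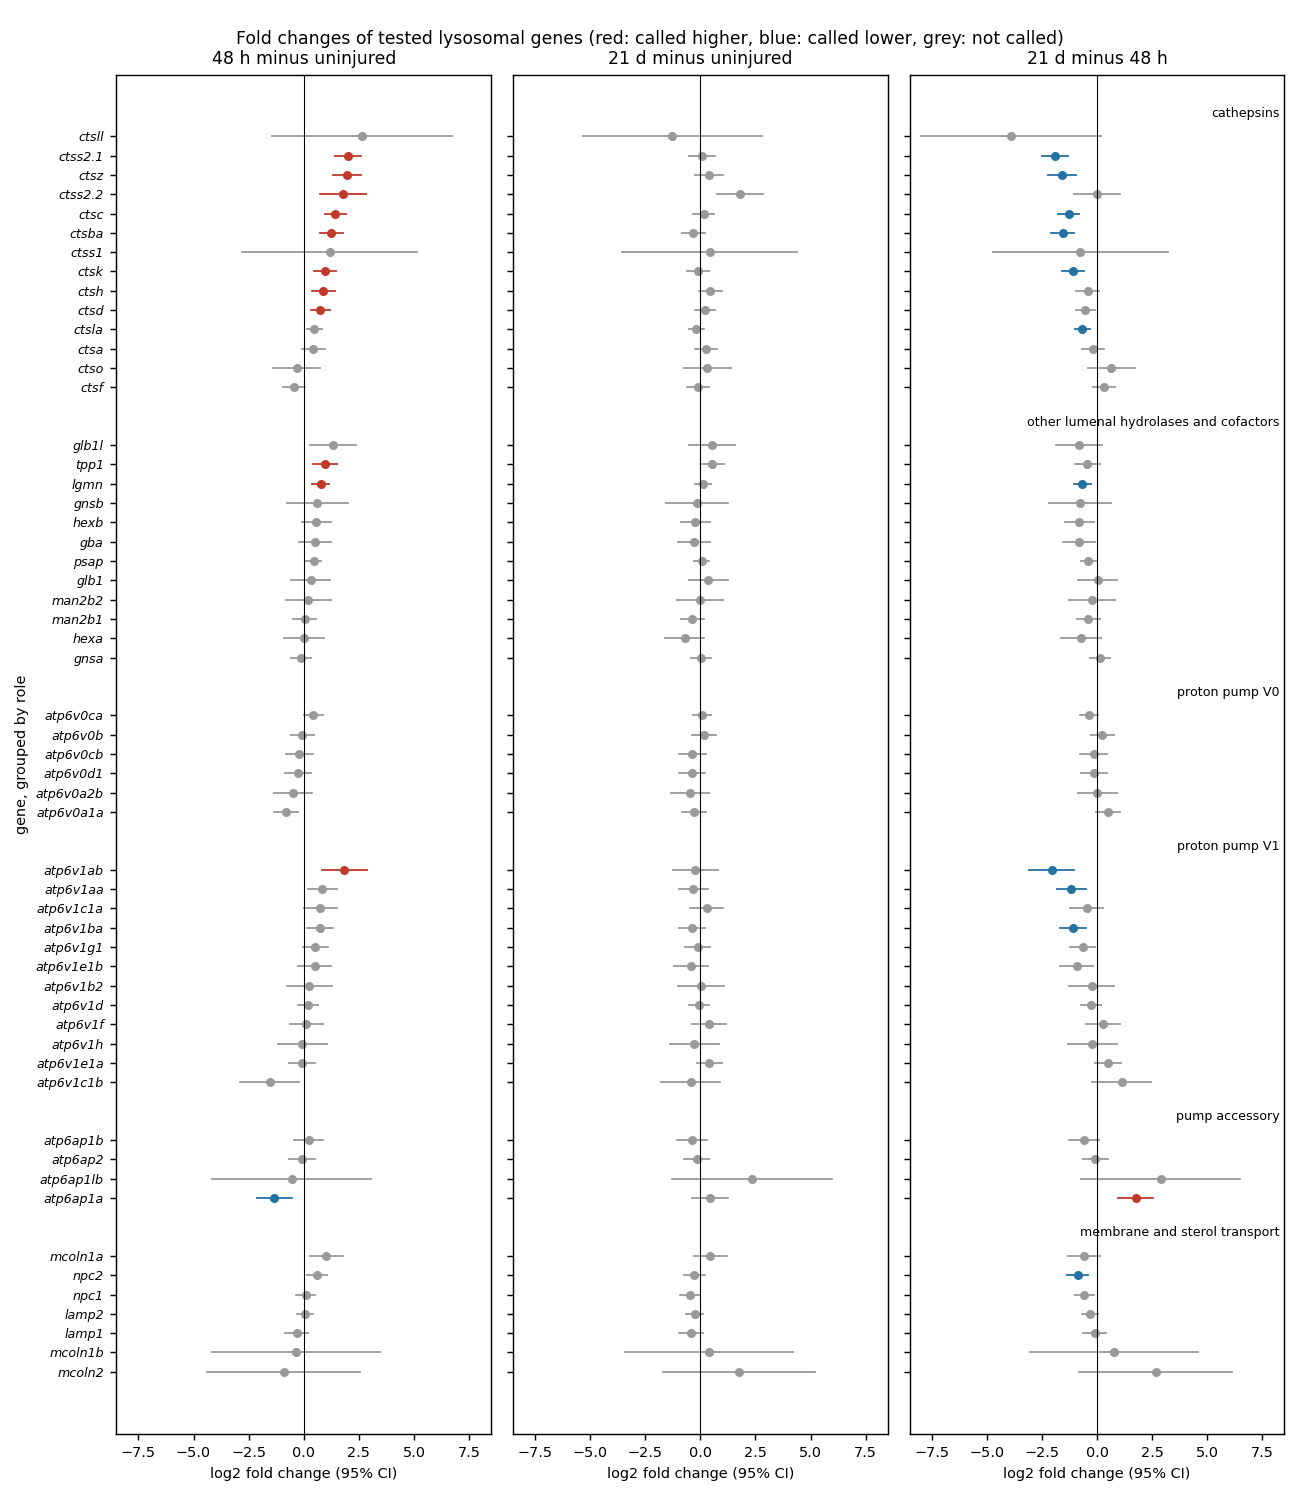
Log2 fold change (x axis) with its 95% confidence interval for each of the 55 tested lysosomal genes, grouped by role, in panels for 48 h over uninjured, 21 d over uninjured and 21 d over 48 h. Coloured genes passed at an adjusted p under 0.05. The first panel has 11 genes higher and 1 lower, the second none, and the third 1 higher and 11 lower.

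At 21 d after ablation, 0 of the 55 lysosomal genes passed against uninjured tissue in limma, against 1.45% of all genes tested (0.52% higher and 0.933% lower). With array weights 1 passed. Without adjustment, 3 had a p under 0.05, namely ctss2.2, tpp1 and npc1. Such a count is near what that threshold passes where nothing differs, so it is no result about these genes. The median log2 fold change was -0.07, and the range was -1.27 to 2.33. Macrophage markers summed to 11688 to 16051 at 21 d, against 8336 to 9249 in uninjured tissue, and 4 of 32 rose. The part of these markers in the values below was not tested.

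The largest of these 3 changes was that of ctss2.2, at 1.80 on the log2 scale (95% confidence interval 0.75 to 2.85, adjusted p = 0.0814). Its groups did not overlap, and it passed with array weights (adjusted p = 0.0334). The neighbouring ctss2.1 had 0.07 (95% confidence interval -0.52 to 0.67). For tpp1 the change was 0.55 (95% confidence interval 0.00 to 1.09, adjusted p = 0.419). The cholesterol exporter npc1 (ENSDARG00000017180) had 1201, 1260 and 1279 at 21 d, against 1673, 1837 and 1712 in uninjured tissue. These libraries did not overlap, and the change was -0.48 (95% confidence interval -0.91 to -0.05, adjusted p = 0.332). Groups also lay apart for ctsh and mcoln1a, with 0.45 each, and for lamp1 and hexa, with -0.43 and -0.72. In all, 4 genes lay wholly above and 3 wholly below the uninjured libraries, against 8.44% and 9.46% of all genes tested. Neither count exceeds those shares.

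At 21 d, 6 cathepsins and 3 genes of the V1 part of the pump had lower levels than at 48 h. Of the 55 genes, 11 were lower at 21 d than at 48 h and 1 was higher, or 20% and 1.82%. Over all genes tested, 4.4% were lower and 5.48% higher, 9.88% together. All 21 d libraries lay below all 48 h ones in 19 of the 55 genes and above them in 1, against 13.7% and 13.6% of all genes tested. By role, the lower genes were 6 of 14 cathepsins, 1 of 12 other hydrolases and cofactors, 0 of 6 V0 genes, 3 of 12 V1 genes and 1 of 7 membrane and sterol transport genes, and the higher gene was 1 of 4 accessory genes. This comparison shares the 48 h libraries with the first one, so the values of both are not separate evidence. Macrophage markers summed to 11688 to 16051 at 21 d, against 24395 to 28853 at 48 h. Of the 32, 14 were lower at 21 d and 3 higher, and their part in the result was not tested. Without the mean-variance trend 2 of the 55 genes passed, ctss2.1 as lower and atp6ap1a as higher. Of all 17891 genes tested, 452 passed under that setting, against 1768 with the trend. So small a count is not read as a result about the lysosomal genes. With equal totals, which moved the median of all genes to -0.23, 1 lysosomal gene was higher and 18 were lower. All genes then split into 605 higher and 1281 lower, against 980 and 788.

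The log2 fold change at 21 d against 48 h was -1.92 for ctss2.1 (SE 0.29, adjusted p = 7.07e-05) and -1.56 for ctsba (SE 0.25, adjusted p = 0.000315). It was -1.28 for ctsc (adjusted p = 0.00056), -1.59 for ctsz (adjusted p = 0.00122) and -1.09 for ctsk (adjusted p = 0.00349). In ctsla it was -0.67 (SE 0.17, adjusted p = 0.0113). All 6 had every 21 d library below every 48 h library. The cathepsins ctsd and ctsh did not pass, with -0.53 (adjusted p = 0.129) and -0.42 (adjusted p = 0.338), and ctss2.2 had 0.00 (95% confidence interval -1.05 to 1.05). For ctsd the change passed with equal totals (adjusted p = 0.019), after quantile normalization (0.0478) and without 48 h library 1 (0.0259).

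In the pump, atp6v1ab fell by 2.06 (SE 0.49, adjusted p = 0.00716) and atp6v1aa by 1.17 (SE 0.32, adjusted p = 0.0186) on the log2 scale. At 21 d atp6v1ba had 0.466 times its 48 h level (adjusted p = 0.0121). These are genes of the ATP-binding subunits A and B, whose hexamer is the motor of the pump. A further subunit B gene, atp6v1b2, did not pass (log2 fold change -0.24, adjusted p = 0.837). The accessory gene atp6ap1a was 3.38-fold higher at 21 d than at 48 h, or 1.76 on the log2 scale (SE 0.39, adjusted p = 0.0039). Legumain fell by 0.66 (adjusted p = 0.0178) and npc2 by 0.88 (adjusted p = 0.0136). The call of lgmn was lost without 48 h library 2 (adjusted p = 0.0623) or 21 d library 3 (0.107). That of npc2 was lost without 48 h library 2 (adjusted p = 0.0673) or 21 d library 1 (0.0639). That of atp6v1aa was lost without 48 h library 1 (adjusted p = 0.0689) or 3 (0.0816) or 21 d library 2 (0.102). The glycoprotein gene lamp2 and the cofactor gene psap did not pass in the deposited scaling. For lamp2 the change was -0.33 (adjusted p = 0.283), passing with equal totals (0.0425) and after quantile normalization (0.0384). For psap it was -0.40 (adjusted p = 0.135), passing with equal totals (0.0121) and after quantile normalization (0.00797).

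Several of these genes exist in related pairs, and the ratio within a pair does not depend on how a library is scaled. The log2 ratio of atp6ap1a to atp6ap1b was -1.38, -0.22 and -0.87 in uninjured tissue, -2.84, -1.72 and -2.56 at 48 h and 0.10, -0.32 and 0.12 at 21 d. All 48 h libraries lay below all others, and those at 21 d overlapped the uninjured ones. The ratio of atp6v1aa to atp6v1ab was 1.95, 1.28 and 2.23 in uninjured tissue, 0.99, 0.30 and 1.17 at 48 h and 1.48, 1.98 and 1.67 at 21 d, again with 48 h lowest and apart. For atp6v1c1a over atp6v1c1b the 48 h libraries were highest, at 3.80, 2.16 and 1.95, against -0.38, 0.33 and 1.06 in uninjured tissue. The ratio of ctss2.1 to ctss2.2 was -0.15, 1.28 and 0.14 at 21 d, against 2.63, 1.42 and 2.41 in uninjured tissue, and here 21 d was the group apart. The ratios of atp6v0ca to atp6v0cb overlapped between all groups. These pairs were picked with their values in view and the ratios were not tested, and copies with similar sequence may exchange reads.

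**Figure D4:**
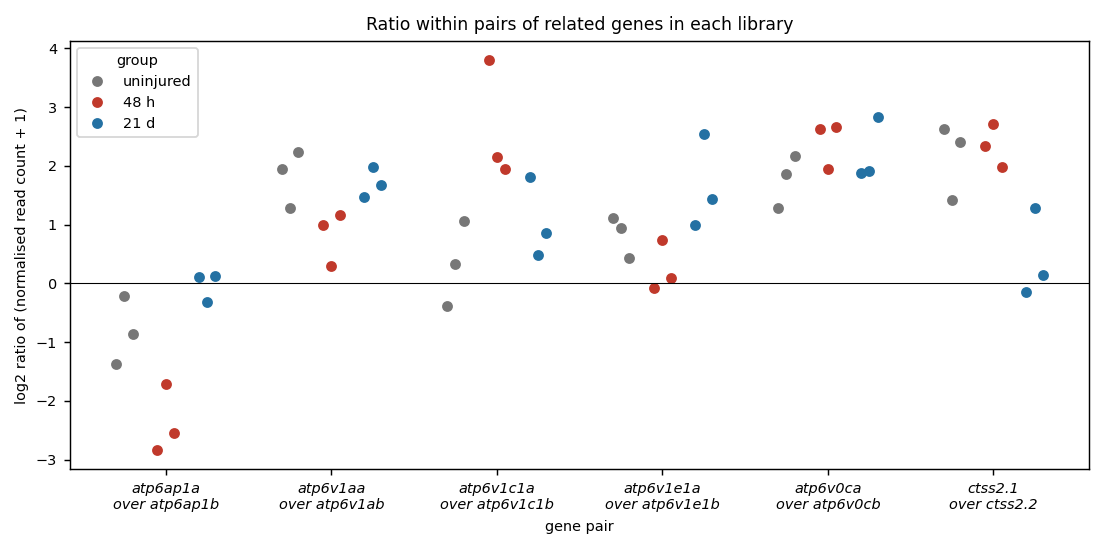
Log2 ratio of the normalised read counts (plus 1) of 6 pairs of related lysosomal genes (y axis) in uninjured, 48 h and 21 d valves; each point is 1 library. The 48 h libraries lie lowest for atp6ap1a over atp6ap1b, between -2.84 and -1.72, and the 21 d libraries lie lowest for ctss2.1 over ctss2.2, between -0.15 and 1.28.

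A wider list of 88 lysosomal genes outside these names was read in the same fit, and it had more genes higher than lower at 48 h. It comes from the same libraries and was chosen with earlier results known, so it is not separate evidence. At 48 h it had 13 genes higher and 0 lower than uninjured tissue, or 14.8%, with a median log2 fold change of 0.48, where 4.44% of all genes tested rose and 6.33% fell. At 21 d against uninjured tissue 1 rose and 1 fell, or 2.27%, against 1.45% of all genes tested. At 21 d against 48 h, 11 fell and 2 rose, or 12.5% and 2.27%, against 4.4% and 5.48% of all genes tested. With equal totals 17 fell and 0 rose, and without 21 d library 1 the count was 7. The lipase pla2g15 was among those that fell, with 0.467 times its 48 h level (adjusted p = 0.0268), a call lost without 48 h library 1 (0.0883) or 3 (0.0964) and without 21 d library 1 (0.103) or 2 (0.136). The granulin genes encode secreted growth factors that also act in the lysosome and are strongly expressed by macrophages. At 48 h grna had 4287, 2030 and 2567, against 434, 310 and 443 in uninjured tissue (log2 fold change 2.85, adjusted p = 1.38e-07). The gene grn1 rose by 3.41 (adjusted p = 9.06e-07) and grn2 by 3.96 (adjusted p = 0.00147). The fourth granulin gene, grnb, had 463, 1266 and 962 at 48 h, against 835, 698 and 608 in uninjured tissue, and did not pass (log2 fold change 0.22, adjusted p = 0.731). At 21 d grna had 703, 758 and 1070, a change of 1.08 over uninjured tissue (adjusted p = 0.0491), a call lost without any single library of either group, with adjusted p between 0.0804 and 0.245, and without 48 h library 3 (0.0611).

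The pump subunit gene tcirg1b encodes a form of V0 subunit a that is known from osteoclasts and immune cells of mammals, and its symbol lies outside the atp6v names. It had 778, 841 and 1086 at 48 h, against 243, 234 and 261 in uninjured tissue (log2 fold change 1.86, adjusted p = 0.000253). These groups lay apart. The change of atp6v0a1a, another gene of subunit a, was -0.79 and did not pass. That of the related tcirg1a was 0.79 and did not pass either (adjusted p = 0.545). At 21 d the values of tcirg1b were 367, 258 and 445, lower than at 48 h by 1.36 on the log2 scale (adjusted p = 0.00587). The nuclease dnase2, which digests DNA of engulfed cells, had 752, 912 and 811 at 48 h, against 339, 202 and 221 in uninjured tissue (log2 fold change 1.73, adjusted p = 0.00112). The tetraspanin cd63 of late endosomes rose by 0.98 (adjusted p = 0.00384) and at 21 d was lower than at 48 h by 1.42 (adjusted p = 9.4e-05).

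Fucosidases, which take fucose off sugar chains, rose as well. The changes at 48 h were 1.11 for fuca2 (adjusted p = 0.00784), 1.79 for fuca1.1 (adjusted p = 0.0109) and 1.90 for fuca1.2 (adjusted p = 0.0244). The call of fuca2 was lost without uninjured library 2 (adjusted p = 0.0596) and that of fuca1.1 without 48 h library 2 (0.0887). That of fuca1.2 was lost without any of the 48 h libraries (0.0515, 0.07 and 0.0864) and without uninjured library 1 (0.0819) or 2 (0.0558). The sorting receptors sort1a and sort1b, which carry proteins from the Golgi to the lysosome, differed in pattern. At 48 h sort1b rose by 2.16 (adjusted p = 0.00577), while sort1a had -0.07 (adjusted p = 0.94). At 21 d sort1a had 213, 148 and 198, against 507, 694 and 447 in uninjured tissue (log2 fold change -1.55, adjusted p = 0.0373). That call was lost without any single library of either group (adjusted p between 0.0689 and 0.19) and with the replicate number as a block (0.0505).

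The transcription factors that control lysosomal genes in mammals belong to the family of tfeb, tfe3 and mitf. The gene tfeb had 1238, 1655 and 798 at 48 h, against 1347, 2340 and 1302 in uninjured tissue, and did not pass (log2 fold change -0.44, adjusted p = 0.352). Changes of tfe3a and tfe3b were 0.50 and -0.20 (adjusted p = 0.709 and 0.915). Only RNA was measured, so the activity of these factors was not tested. The gene mitfa, best known from pigment cells, had 84, 34 and 16 at 48 h and was listed at 0 in all 21 d and uninjured libraries, and the difference from uninjured tissue missed the threshold (adjusted p = 0.0554). Calls were made with equal totals (adjusted p = 0.0457), a pseudocount of 5 (0.0407), no filter (0.0237), no mean-variance trend (0.00481) and no robust step (0.0448). The gene reached 10 in 3 libraries, all of them at 48 h. It thus passed the filter only through the group where it is high, and its p-values are no support for a difference.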

How the data were processed

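The deposited table holds whole numbers per gene and library, treated here as a score: a read count normalised for library size and rounded. That reading rests on the values, since their median-of-ratios factors varied by no more than 0.109% over 13019 genes above 0 in every library, and no label states the step. The authors used FastQC 0.11.8, Trimmomatic 0.33, STAR 2.6.0c, featureCounts 1.6.0 and DESeq2 1.18.1 and the builds danRer11 and GRCz11, per the submitters' processing notes. No count model was fitted, because raw counts were not used here. Values plus 1 were log2-transformed, and the 17891 genes reaching 10 in 3 or more libraries entered 1 fit of all 9 libraries in limma 3.58.1 (R 4.3.3). The fit used limma's trend and robust options and had 6 residual degrees of freedom. Tests are two-sided, with Benjamini-Hochberg adjustment over all genes tested and a threshold of 0.05. The added 1 shrinks fold changes of low genes. Where some libraries stand at 0, a fold change can instead exceed the ratio of group means. An example is mpx at 48 h, at 35.5-fold with means of 39.7 in uninjured tissue and 183 at 48 h.

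Members and lists were chosen with earlier results of these data known. Values in every library are given for members that passed in any comparison, for the member with the highest mean in each role and, in a role where none passed, for the one with the smallest adjusted p. Further members were given values after these were seen. Genes of the wider lysosomal list were named if called, at most 10 a comparison by smallest adjusted p, with tfeb, tfe3a, tfe3b and mitfa, and cell type markers came from lists. The genes fli1a, fli1b, tie1, vwf, klf2a, gata1a, grnb, nfatc1, acp5a, acp5b, mmp9, tnfrsf11a, lyz, ncf1 and cpa5 were named after their values were seen. So were csf1rb, timd4, tcirg1a, clcn7 and laptm4b. The model was also run on simulated counts in which all genes shared the same dispersion. That run cannot judge the choice of variance model for these data. Same-numbered libraries did not deviate together (0 of 9 pairs had a correlation over 0.1), so the numbers were not used as a block. Alternatives covered scaling, pseudocount, filter, variance model, array weights, a block on replicate number, fits of 2 groups, and omission of single libraries. Figures were drawn with matplotlib 3.10.9.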

Additional observations from a re-analysis of the deposited data

How the results depend on the processing

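Counts of the 55 lysosomal genes at 48 h against uninjured tissue were 12, with 4 without the mean-variance trend and 6 to 12 when single libraries were left out. Over all genes 1927 passed there, with 684 without the trend and 1388 to 1897 when single libraries were left out. At 21 d against uninjured tissue the count of lysosomal genes was 0 under all settings run except array weights, where it was 1. At 21 d against 48 h it was 12, with 19 under equal column totals and 2 without the trend. Over all genes 1768 passed there, with 1886 under equal column totals and 452 without the trend. Counts of the wider list of 88 genes were 13 at 48 h, with 7 without the trend and 9 to 11 when single libraries were left out. At 21 d against uninjured tissue the 2 genes of that list dropped to 1 with equal totals, quantile normalization, a pseudocount of 0.5, a mean of at least 20 or the replicate block, to 0 without the trend or the robust step, and to between 0 and 2 when single libraries were left out. At 21 d against 48 h it had 13, with 3 without the trend and 7 to 14 when single libraries were left out, 7 of them without 21 d library 1. The cause was not tested. With the replicate number as a block the lysosomal counts stayed at 12, 0 and 12, and those of the wider list were 11, 1 and 10, in the order of comparisons above. The block ended 1 call of a named gene, that of sort1a at 21 d against uninjured tissue. Correlations of same-numbered libraries lay between -0.0204 and 0.0271, and 6 of 9 libraries correlated best with a library of their own number. Of 46 calls of single named genes, 11 held under all 20 alternatives, and no direction of a call was turned. The genes ctsll and ctss1 had low values, and whether depth limits them was not tested.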
